A study of Mus musculus with 6 samples.

Results

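Sterol and fatty acid synthesis was followed through 34 genes, named by symbol for their place in the pathway, out of 24062 genes listed in the count tables. They are 6 genes of the mevalonate pathway, 11 of the squalene and sterol steps, 6 of the regulators and sterol transport, and 11 of fatty acid synthesis, elongation and desaturation. All 34 had a listed row, and all 34 were among the 13155 genes with enough reads to be tested. The samples were polyA RNA-seq libraries of C57BL/6J mouse bone marrow cells from femurs and tibiae, grown with the cytokine GM-CSF, the usual way to raise dendritic cells from marrow, and labelled as dendritic cells; the labels name no sort or gate. High tension cultures grew at 50 kPa (3 libraries) and low tension cultures at 2 kPa (3 libraries), the kPa value being the stiffness. GM-CSF, the strain and the feeding schedule were shared by both groups, and no untreated marrow was analysed here. The labels do not say whether the 3 libraries of a group came from separate mice or cultures, so the p-values measure the spread between these libraries, which may be technical.

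Cells build cholesterol from acetyl-CoA through mevalonate, isoprenoid units, squalene and lanosterol, and build fatty acids from the same acetyl-CoA through malonyl-CoA. Most of these enzymes are known targets of the sterol regulatory element-binding proteins, which the escort protein Scap carries out of the endoplasmic reticulum when sterols are low and which the Insig proteins hold back when sterols are plentiful. In dendritic cells and macrophages, both pathways are known to supply membranes and to be remodelled on activation.

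The deposited values were raw read counts, with 33834485 to 36109809 counts per library at 50 kPa and 35912742 to 36270938 at 2 kPa. Levels are given below as CPM (counts relative to library size) after scaling by the trimmed mean of M-values (TMM), and changes as log2 fold changes of 50 kPa over 2 kPa with their standard errors (SE). A gene was called where edgeR's quasi-likelihood test gave a Benjamini-Hochberg adjusted p under 0.05 over all 13155 genes. High tension replicates 1 and 2 were much more alike than any other pair of libraries of the same group, with a chi-square per degree of freedom of 6.71 against 126 to 233. No call remained for any gene in the same test when those libraries were summed into 1, although 2138 genes still had an unadjusted p under 0.05. The summed level of 12 dendritic cell and macrophage markers ranged over 32921 to 39860 CPM at 50 kPa, against 15548 to 26494 CPM at 2 kPa, with none of the 12 called by edgeR (4 higher and 1 lower at an unadjusted p under 0.05, and 5 higher and 1 lower by DESeq2). Of its defining markers, Itgax averaged 2399 ± 857 CPM at 50 kPa and 801 ± 439 CPM at 2 kPa, Zbtb46 8.40 ± 1.67 CPM at 50 kPa and 10.8 ± 1.68 CPM at 2 kPa, and Flt3 2.78 ± 1.05 CPM at 50 kPa and 7.33 ± 2.71 CPM at 2 kPa (SD, n = 3 each). Of 9 neutrophil markers with a row, 6 were called lower at 50 kPa, their sum being 818 to 1405 CPM at 50 kPa and 3543 to 6699 CPM at 2 kPa. Of 8 B cell markers, 7 were called lower, with sums of 23.3 to 101 CPM at 50 kPa and 844 to 1362 CPM at 2 kPa. Most of that sum was Jchain, at 763, 1209 and 761 CPM at 2 kPa. Basophil and mast cell (31.5 to 108 CPM at 50 kPa, 176 to 625 CPM at 2 kPa), promyelocyte (21.7 to 82.1 CPM at 50 kPa, 105 to 726 CPM at 2 kPa), megakaryocyte (76.6 to 241 CPM at 50 kPa, 218 to 377 CPM at 2 kPa) and proliferation markers (458 to 566 CPM at 50 kPa, 562 to 864 CPM at 2 kPa) were lower in sum, with overlap for the last 2 kinds. The test called 0 of 6, 0 of 6, 5 of 6 and 1 of 10 of these as lower, and 6, 6, 5 and 3 of them were lower at an unadjusted p under 0.05 (DESeq2 called 6, 6, 5 and 2). Lyz2 and Cd74 made up most of the dendritic cell and macrophage sum. Pf4 was the largest part of the megakaryocyte sum, at 116 ± 76.6 CPM at 50 kPa and 127 ± 53.4 CPM at 2 kPa. No marker with a row was at 0 in every library. In such bulk libraries, fewer cells of a type and less RNA per cell cannot be told apart, and the part of cell composition in the results below was not tested.

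Of the 34 genes, Mvd alone was called. It was higher at 50 kPa, so 2.94% of the members were called higher, beside 1.47% of all genes tested, and none was called lower, beside 1.98% of all genes. Below the call, 22 members had a positive and 12 a negative log2 fold change, with a median of 0.16 beside -0.03 for all genes tested. An unadjusted p under 0.05 was reached by 10 higher members (29.4%, beside 13.0% of all genes) and by 2 lower members (5.88%, beside 14.8% of all genes). The 3 libraries at 50 kPa all stood above the 3 at 2 kPa for 16 members (47.1%), beside 17.2% of all genes tested, or 18.2% of the genes averaging at least 5 CPM. They all stood below for 3 members (8.82%), beside 16.9% of all genes tested, or 14.1% of those averaging at least 5 CPM. The members were chosen with earlier results of these data known, so these shares are a description and no test of the list. These separations depended on scaling: with total counts in place of TMM, 4 members stood wholly above (Mvd, Msmo1, Stard4 and Scd2) and 4 wholly below (Pmvk, Idi1, Fdps and Cyp51), while 8.80% and 22.5% of all genes did. The median of all genes moved to -0.16 under total counts. Under total counts 17 members were positive and 17 negative, and 2 were higher and 2 lower at an unadjusted p under 0.05. Because such a change of scaling shifts all genes by about the same amount, the distance of a list from the median of all genes hardly depends on it: the 17 mevalonate and sterol genes had a median 0.21 above that of all genes and the 11 fatty acid genes 0.24 under TMM. The distance of the fatty acid genes was 0.15 without low tension replicate 3 and 0.32 when low tension replicate 2 was left out.

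**Figure D1:**
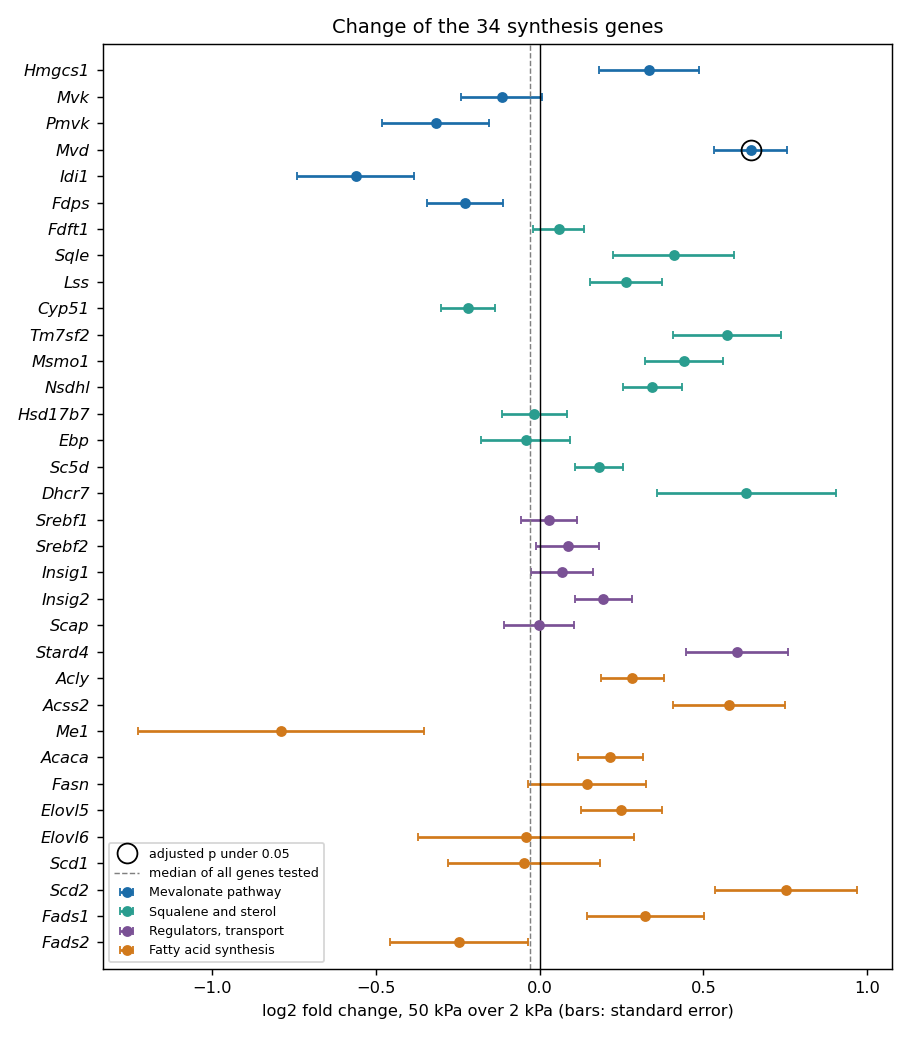
Log2 fold change of each of the 34 genes, 50 kPa over 2 kPa, with its standard error (horizontal axis), grouped by role and coloured by list. The ringed gene, Mvd, is the only one with an adjusted p under 0.05, and Idi1 and Me1 lie farthest to the left.

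The mevalonate genes did not lean one way, with 2 higher and 4 lower in value and a median log2 fold change of -0.17. Before their values, the start regions of 3 of them are shown because these genes differed most in direction, or, for Hmgcs1, because it was the only member whose start region held the sterol regulatory element core letters searched for. Each is the plus or minus strand from 250 bases before to 50 bases after a RefSeq gene start (GRCm38.p6), written 5′ to 3′, and Mvd and Idi1 were picked after their values were seen. Capitals mark TCACNCCAC (the core letters of a sterol regulatory element), CCAAT (the letters of the CCAAT box) and GGGCGG (the letters of the GC box), each on either strand. Hmgcs1 lies at chr13:119690101-119690400 on the plus strand, Mvd at chr8:122443373-122443672 on the minus strand, and Idi1 at chr13:8885356-8885655 on the plus strand.
Hmgcs1: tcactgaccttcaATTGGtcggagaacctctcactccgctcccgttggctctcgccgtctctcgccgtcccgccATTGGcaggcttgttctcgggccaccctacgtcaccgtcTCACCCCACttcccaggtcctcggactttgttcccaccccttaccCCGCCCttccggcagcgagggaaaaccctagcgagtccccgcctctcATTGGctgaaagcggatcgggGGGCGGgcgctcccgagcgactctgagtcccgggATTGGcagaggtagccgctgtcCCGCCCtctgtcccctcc
Mvd: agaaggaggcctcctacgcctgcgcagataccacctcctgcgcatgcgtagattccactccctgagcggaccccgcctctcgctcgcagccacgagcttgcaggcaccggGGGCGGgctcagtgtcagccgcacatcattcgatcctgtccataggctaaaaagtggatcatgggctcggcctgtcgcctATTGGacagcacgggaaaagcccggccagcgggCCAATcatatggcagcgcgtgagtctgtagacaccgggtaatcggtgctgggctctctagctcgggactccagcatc
Idi1: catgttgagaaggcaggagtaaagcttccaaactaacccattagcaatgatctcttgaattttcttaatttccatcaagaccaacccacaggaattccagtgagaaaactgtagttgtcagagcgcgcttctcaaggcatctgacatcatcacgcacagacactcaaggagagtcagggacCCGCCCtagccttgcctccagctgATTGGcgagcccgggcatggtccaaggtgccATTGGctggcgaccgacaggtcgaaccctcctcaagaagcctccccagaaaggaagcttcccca
The Hmgcs1 window held 1 core, 4 CCAAT and 3 GC box matches, and the Mvd and Idi1 windows each held 2 CCAAT matches and 1 GC box match with no core. RefSeq windows were matched for 27 of the 34 genes, in 36 windows. The core letters were in 2.78% of these windows, beside 1.24% of all 32851 windows. The CCAAT letters were in 66.7% of the members' windows, beside 37.4% of all, and the GC box letters in 72.2%, beside 35.7%. The 32851 windows were not limited to genes tested here, and no share over the tested genes was computed. The higher shares can therefore not be read as particular to this pathway. A match is a description of letters and not a measured binding site, and Mvd and Idi1, whose fold changes had opposite signs, held the same numbers of each motif.

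Mvd, mevalonate diphosphate decarboxylase, makes the isoprenoid unit isopentenyl diphosphate from mevalonate diphosphate. It stood at 121, 123 and 106 CPM at 50 kPa, against 80.8, 66.9 and 75.8 CPM at 2 kPa. Every library at 50 kPa was above every library at 2 kPa, and the gap was wider than the spread within either group. The means were 116 ± 9.48 CPM at 50 kPa and 74.5 ± 7.06 CPM at 2 kPa (SD, n = 3 each), a 1.56-fold higher level and a log2 fold change of 0.64 ± 0.11 (SE), with an adjusted p of 0.0436 by edgeR's quasi-likelihood test. Mvd spans 122433601 to 122443422 of chromosome 8 on the minus strand in GENCODE vM21 on GRCm38, and no exon of another annotated gene overlapped its own. The direction held in all 15 alternatives run, at 0.51 to 0.72, while the call held in 7 of them, with adjusted p-values from 0.000115 (DESeq2) to 0.213. It was lost under total counts (0.0777), with a minimum of 5 CPM (0.0631) and with high tension replicates 1 and 2 summed (0.196). With edgeR it was lost without high tension replicate 1 (adjusted p = 0.213), without high tension replicate 2 (adjusted p = 0.211) and without high tension replicate 3 (adjusted p = 0.0530), and likewise when low tension replicate 2 (adjusted p = 0.106) or low tension replicate 3 (adjusted p = 0.0646) was left out.

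Idi1, the isomerase that turns isopentenyl diphosphate into dimethylallyl diphosphate, is the next enzyme of the pathway and was lower in value. Its level was 132, 138 and 146 CPM at 50 kPa, against 176, 176 and 261 CPM at 2 kPa. The 50 kPa libraries all lay below the 2 kPa ones, and low tension replicate 3 was far above the other two. The log2 fold change was -0.56 ± 0.18 with an adjusted p of 0.114 in edgeR, short of the threshold, and -0.34 without low tension replicate 3. Idi1 lies at 8885501 to 8892451 of chromosome 13 on the plus strand, and 9.20% of its exon bases also lie in an exon of a gene on the opposite strand.

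Hmgcs1, the synthase that joins acetoacetyl-CoA and acetyl-CoA, stood at 291, 318 and 248 CPM at 50 kPa, against 241, 192 and 247 CPM at 2 kPa. The groups only just failed to overlap, at 248 CPM in high tension replicate 3 and 247 CPM in low tension replicate 3, and they overlapped under relative log expression scaling. Its log2 fold change was 0.33 ± 0.15 (adjusted p = 0.211, edgeR). Of the exon bases of Hmgcs1, 12.1% also lie in exons of Gm48342 on the opposite strand.

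The kinases Mvk and Pmvk, which phosphorylate mevalonate and phosphomevalonate, had overlapping groups. Mvk stood at 20.2, 21.2 and 18.1 CPM at 50 kPa, against 21.1, 24.1 and 19.1 CPM at 2 kPa. Pmvk stood at 33.8, 34.2 and 40.5 CPM at 50 kPa, against 37.2, 54.6 and 43.4 CPM at 2 kPa. Their log2 fold changes were -0.12 ± 0.12 and -0.32 ± 0.16, neither past the threshold in edgeR (adjusted p = 0.558 and 0.251). Low tension replicate 2 was the highest library for both, and without it the values were -0.025 for Mvk and -0.16 for Pmvk. Fdps, which makes farnesyl diphosphate, stood at 155, 159 and 153 CPM at 50 kPa, against 173, 208 and 165 CPM at 2 kPa. The 50 kPa libraries were all below, by a log2 fold change of -0.23 ± 0.12 (adjusted p = 0.251, edgeR), which was -0.12 without low tension replicate 2. Of the exon bases of Fdps, 26.7% also lie in exons of Gm43738 on the same strand, so its count may include or lose reads of that gene.

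**Figure D2:**
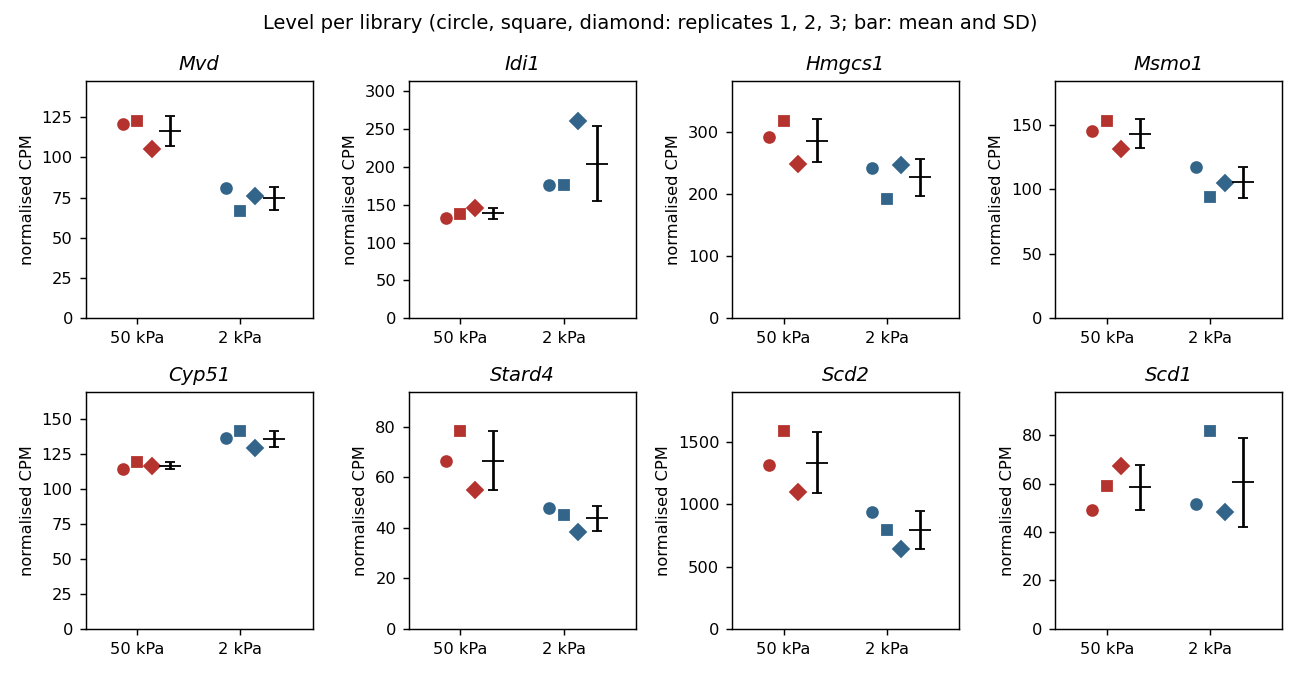
Normalised CPM (vertical axis, from 0) of 8 members in each library, 50 kPa left of 2 kPa, with replicates 1, 2 and 3 as circle, square and diamond and the mean ± SD beside them. Mvd, Msmo1, Stard4 and Scd2 stand apart upward and Idi1 and Cyp51 downward, Hmgcs1 nearly touches at 248 and 247 CPM, and Scd1 overlaps.

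The squalene and sterol genes leaned higher in value, with 8 of 11 positive, a median of 0.26 and none called by edgeR (5 higher and 1 lower at an unadjusted p under 0.05, and 3 higher and 1 lower by DESeq2). At that unadjusted p, 45.5% were higher and 9.09% lower, beside 13.0% and 14.8% of all genes. DESeq2 called 1121 genes higher and 1251 lower of 13150. The libraries at 50 kPa stood wholly above those at 2 kPa for 6 of the 11 and wholly below for Cyp51, beside 17.2% and 16.9% of all genes tested. Under total counts, Msmo1 was the only one of the 11 wholly above, and Cyp51 was still wholly below. Fdft1, squalene synthase, differed little, at 63.0, 61.4 and 59.1 CPM at 50 kPa, against 60.7, 59.5 and 56.1 CPM at 2 kPa. Of the exon bases of Fdft1, 18.3% also lie in exons of Ctsb on the opposite strand, so its count may include reads of Ctsb or lose its own. Sqle, squalene epoxidase, a rate-limiting step, stood at 124, 135 and 92.6 CPM at 50 kPa, against 104, 86.5 and 74.6 CPM at 2 kPa. Its groups overlapped through high tension replicate 3, and its log2 fold change was 0.41 ± 0.18 (adjusted p = 0.207, edgeR). Lss, which closes the rings to lanosterol, stood at 49.6, 54.7 and 46.8 CPM at 50 kPa, against 39.5, 46.8 and 39.6 CPM at 2 kPa. The groups of Lss touched to within the printed digits, with a log2 fold change of 0.26 ± 0.11 (adjusted p = 0.178, edgeR).

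Cyp51, the lanosterol demethylase, was the sterol enzyme with the lowest fold change. It stood at 114, 119 and 116 CPM at 50 kPa, against 136, 141 and 129 CPM at 2 kPa. The groups were narrow and did not overlap, and the log2 fold change was -0.22 ± 0.08 (adjusted p = 0.154 in edgeR, 0.0216 in DESeq2). Of the enzymes that follow in the demethylation steps, Tm7sf2, Msmo1 and Nsdhl were higher in value. Hsd17b7, which also acts there, was not, with a log2 fold change of -0.02 and overlapping groups. Tm7sf2, a sterol reductase, stood at 25.9, 24.1 and 20.1 CPM at 50 kPa, against 18.8, 14.7 and 13.5 CPM at 2 kPa. Msmo1, the methylsterol monooxygenase, stood at 145, 153 and 132 CPM at 50 kPa, against 118, 93.8 and 105 CPM at 2 kPa. Nsdhl, which removes the oxidised methyl group, stood at 36.4, 41.7 and 37.2 CPM at 50 kPa, against 29.4, 31.6 and 29.8 CPM at 2 kPa. The groups of Tm7sf2, Msmo1 and Nsdhl did not overlap. Their log2 fold changes were 0.57 ± 0.17, 0.44 ± 0.12 and 0.34 ± 0.09, and edgeR's adjusted p-values of 0.0975, 0.0860 and 0.0820 missed the threshold. Of the exon bases of Tm7sf2, 12.1% also lie in exons of Vps51 on the same strand, while Msmo1 and Nsdhl had no exon overlap.

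The remaining sterol enzymes were mixed. Hsd17b7 and Ebp, a ketosteroid reductase and the sterol isomerase, had overlapping groups and log2 fold changes of -0.02 ± 0.10 and -0.04 ± 0.14. Sc5d, the desaturase of the C5 bond, stood at 58.3, 61.7 and 59.1 CPM at 50 kPa, against 53.4, 52.8 and 51.8 CPM at 2 kPa. Sc5d had the smallest SD at 2 kPa of the 11, and its log2 fold change was 0.18 ± 0.07 (adjusted p = 0.172, edgeR). Dhcr7, which makes cholesterol from 7-dehydrocholesterol, stood at 53.8, 58.4 and 44.6 CPM at 50 kPa, against 44.4, 35.7 and 21.0 CPM at 2 kPa. The 2 kPa libraries spread widely, from 21.0 CPM in replicate 3 to 44.4 CPM in replicate 1, which nearly reached the lowest 50 kPa library. The log2 fold change of 0.63 ± 0.27 (adjusted p = 0.193, edgeR) became 0.38 when low tension replicate 3 was left out and 0.88 when replicate 1 was left out instead.

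**Figure D3:**
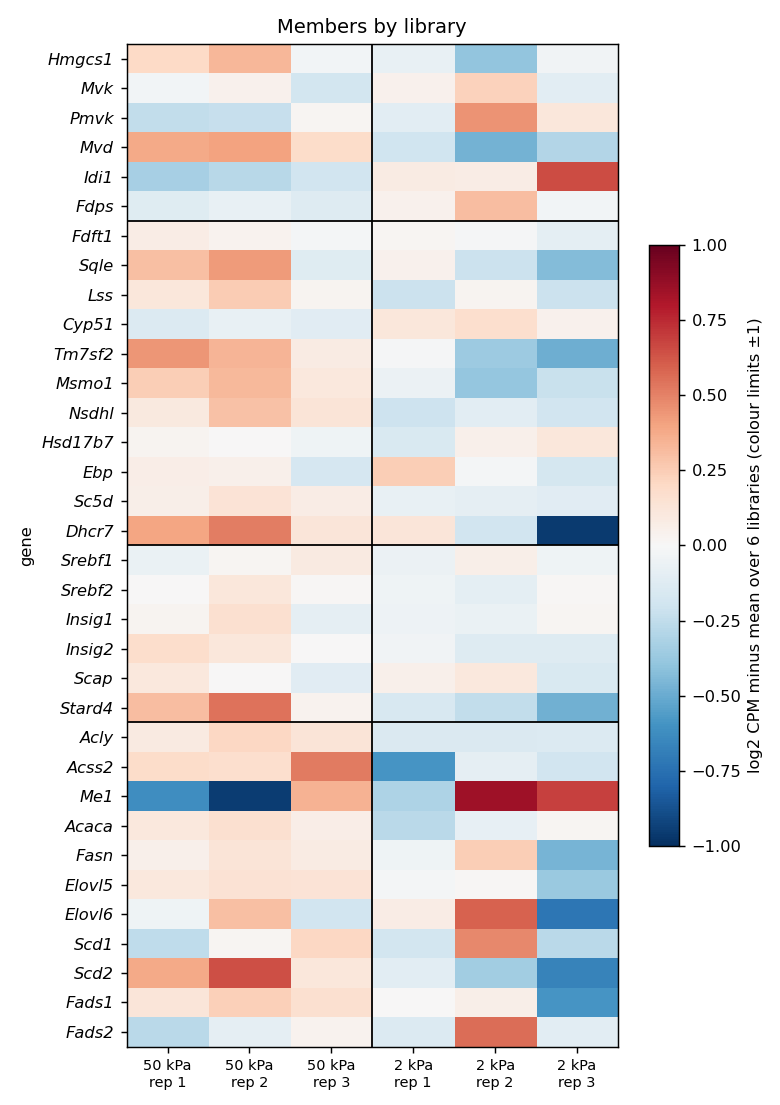
Each gene's log2 CPM minus its mean over the 6 libraries (colour), with 50 kPa libraries left of 2 kPa libraries and lines between the 4 role lists. The sterol block is mostly red at 50 kPa and bluest in low tension replicate 3, while Idi1, Me1 and several fatty acid genes are reddest in a 2 kPa library.

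Library by library, the sterol block varied within the groups as well as between them. Which library was highest or lowest was not counted over all genes tested, so the following counts have no background. Of the 11 sterol genes, 6 were highest in high tension replicate 2 and 6 were lowest in low tension replicate 3. Their mean log2 deviation from each gene's own average was 0.15, 0.21 and 0.01 at 50 kPa, and -0.02, -0.10 and -0.25 at 2 kPa. High tension replicate 3 lay close to low tension replicate 1 on this measure. On the first principal component of all genes the scores were 54.5, 59.5 and 8.06 at 50 kPa, and -13.1, -57.4 and -51.5 at 2 kPa, so those 2 libraries were also nearest to each other there.

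Of the 6 regulators and carriers, none was called by edgeR (1 higher at an unadjusted p under 0.05, and 1 higher by DESeq2). Stard4 and Insig2 were the ones whose groups did not overlap under TMM, 33.3% of the list beside 17.2% of all genes tested. The groups of Insig2 overlapped under upper-quartile and total-count scaling, while those of Stard4 did not. Srebf2, the factor that mainly drives the sterol genes, stood at 216, 234 and 218 CPM at 50 kPa, against 210, 202 and 218 CPM at 2 kPa. Srebf1, which mainly drives the fatty acid genes, stood at 87.7, 93.3 and 97.9 CPM at 50 kPa, against 88.1, 95.9 and 89.4 CPM at 2 kPa. Both overlapped between the groups, with log2 fold changes of 0.09 ± 0.10 and 0.03 ± 0.09. The log2 ratio of Srebf1 to Srebf2 within a library was -1.26 ± 0.09 at 50 kPa and -1.21 ± 0.12 at 2 kPa (SD, n = 3 each), a difference of -0.06 (two-sided exact permutation test, p = 0.5, where the smallest p this design allows is 0.1). Such RNA levels say nothing of how much of either protein was cleaved and active, which was not measured.

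Insig1, a retention protein and itself a known target of the factors, stood at 94.7, 104 and 87.4 CPM at 50 kPa, against 89.5, 88.7 and 94.3 CPM at 2 kPa. Insig2, the second retention protein, stood at 33.2, 31.7 and 29.4 CPM at 50 kPa, against 28.7, 26.9 and 26.8 CPM at 2 kPa. Insig1 overlapped between groups at 0.07 ± 0.09, and Insig2 stood wholly above under TMM at 0.19 ± 0.09 (adjusted p = 0.207, edgeR). The log2 ratio of Insig1 to Insig2 was 1.60 ± 0.10 at 50 kPa and 1.72 ± 0.09 at 2 kPa, a difference of -0.13 (two-sided exact permutation p = 0.2, adjusted 0.3 over the 3 ratios). Scap differed by less than its error, at -0.00 ± 0.11. Stard4, a soluble carrier that moves sterol between membranes, was the regulator list's highest in fold change. It stood at 66.4, 78.1 and 54.7 CPM at 50 kPa, against 47.9, 45.0 and 38.3 CPM at 2 kPa, with no overlap and a log2 fold change of 0.60 ± 0.16 (adjusted p = 0.0813, edgeR).

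None of the 11 fatty acid genes was called by edgeR (3 were higher at an unadjusted p under 0.05, and 3 by DESeq2). The 3 at that unadjusted p are 27.3% of the list, beside 13.0% of all genes. Over the 11, 7 were positive and 4 negative in value, with a median of 0.22, and 6 stood wholly above at 50 kPa while none stood wholly below, beside 17.2% and 16.9% of all genes tested. Under total counts, Scd2 was the only one of the 11 wholly above. Acly, ATP-citrate lyase, which makes cytosolic acetyl-CoA from citrate, stood at 297, 323 and 306 CPM at 50 kPa, against 253, 253 and 255 CPM at 2 kPa. Acly had the smallest SD relative to its mean at 2 kPa of the 11, and its log2 fold change was 0.28 ± 0.10 (adjusted p = 0.128, edgeR). Acss2, which makes acetyl-CoA from acetate, stood at 22.5, 22.2 and 28.4 CPM at 50 kPa, against 13.1, 18.6 and 17.3 CPM at 2 kPa, without overlap. Its log2 fold change was 0.58 ± 0.17 (adjusted p = 0.102, edgeR). On the opposite strand, exons of Ggt7, Acss2os and Gss overlap 1.90%, 3.30% and 3.90% of its exon bases. Me1, malic enzyme, which supplies NADPH, had the lowest fold change of the 34 and the lowest count. It stood at 5.16, 4.09 and 10.2 CPM at 50 kPa, against 6.42, 14.3 and 12.8 CPM at 2 kPa. High tension replicate 3 made the groups overlap, and the log2 fold change of -0.79 ± 0.44 (adjusted p = 0.281, edgeR) was -1.27 without it.

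Acaca, the acetyl-CoA carboxylase that commits carbon to fatty acids, stood at 47.3, 49.1 and 46.0 CPM at 50 kPa, against 36.5, 41.5 and 44.6 CPM at 2 kPa. Fasn, fatty acid synthase, stood at 117, 124 and 119 CPM at 50 kPa, against 110, 134 and 81.6 CPM at 2 kPa. Acaca stood wholly above at 0.22 ± 0.10 (0.14 without low tension replicate 1), whereas Fasn overlapped at 0.14 ± 0.18 because its 2 kPa libraries covered a wider range than its 50 kPa ones. Neither passed the threshold in edgeR (adjusted p = 0.216 for Acaca and 0.616 for Fasn). Elovl5, an elongase of polyunsaturated chains, stood at 127, 131 and 130 CPM at 50 kPa, against 116, 119 and 91.2 CPM at 2 kPa. Elovl6, the elongase of palmitate, stood at 22.3, 28.3 and 20.1 CPM at 50 kPa, against 24.1, 34.7 and 13.9 CPM at 2 kPa. Elovl5 did not overlap (0.25 ± 0.12, adjusted p = 0.238, edgeR, and 0.14 without low tension replicate 3) and Elovl6 did (-0.04 ± 0.33).

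The desaturases Scd1 and Scd2, which both place the double bond of oleate and palmitoleate, lie close together on chromosome 19, at 44394455 to 44407879 (minus strand) and 44293674 to 44306864 (plus strand). Scd2 stood at 1318, 1587 and 1099 CPM at 50 kPa, against 942, 797 and 638 CPM at 2 kPa. Every 50 kPa library was above every 2 kPa library, with means of 1335 ± 244 CPM at 50 kPa and 792 ± 152 CPM at 2 kPa (SD, n = 3 each). The 1.68-fold difference, a log2 fold change of 0.75 ± 0.22, was the largest positive one of the 34, but its adjusted p of 0.0962 in edgeR missed the threshold. Scd1 stood at 48.9, 59.2 and 67.3 CPM at 50 kPa, against 51.4, 81.6 and 48.3 CPM at 2 kPa. Its groups overlapped and its log2 fold change was -0.05 ± 0.23. Within a library, the log2 ratio of Scd1 to Scd2 was -4.51 ± 0.42 at 50 kPa and -3.74 ± 0.45 at 2 kPa. The difference was -0.77 (two-sided exact permutation p = 0.2, adjusted 0.3 over the 3 ratios). The groups overlapped, at -4.03 in high tension replicate 3 and -4.19 in low tension replicate 1. With a smallest possible p of 0.1, this test could not have called any ratio.

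Fads1 and Fads2, the delta-5 and delta-6 desaturases, are neighbours on chromosome 19 too. Fads1 stood at 108, 118 and 112 CPM at 50 kPa, against 99.7, 104 and 66.4 CPM at 2 kPa. Fads2 stood at 21.6, 24.5 and 26.7 CPM at 50 kPa, against 23.7, 38.4 and 24.2 CPM at 2 kPa. Fads1 stood wholly above (0.32 ± 0.18, adjusted p = 0.281, edgeR, and 0.14 without low tension replicate 3) while Fads2 overlapped (-0.25 ± 0.21, adjusted p = 0.470, edgeR).

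Low tension replicate 2 was the highest of all 6 libraries for 5 of the 11 fatty acid genes, namely Me1, Fasn, Elovl6, Scd1 and Fads2. High tension replicate 2 was the highest for 5 others, and low tension replicate 3 the lowest for 6. Such counts were not made over all genes tested. Mean log2 deviations of the 11 genes were -0.01, 0.09 and 0.15 at 50 kPa, and -0.16, 0.19 and -0.26 at 2 kPa, so the 2 kPa libraries spread on both sides of the 50 kPa ones. The neutrophil marker sum was highest in the same library, low tension replicate 2, at 6699 CPM. So were the sums of B cell (1362 CPM), proliferation (864 CPM), promyelocyte (726 CPM), basophil and mast cell (625 CPM) and megakaryocyte markers (377 CPM). The dendritic cell and macrophage sum was lowest there, at 15548 CPM. The part of cell composition in these values was not tested. Without that library, the log2 fold change of Elovl6 was 0.31, of Scd1 0.23, of Fads2 0.02, of Fasn 0.32 and of Me1 -0.57, in place of -0.04, -0.05, -0.25, 0.14 and -0.79. Leaving out low tension replicate 3 instead moved the first 4 the other way, to -0.32 for Elovl6, -0.18 for Scd1, -0.35 for Fads2 and -0.022 for Fasn, and gave -0.68 for Me1. Me1 stayed negative whichever library was left out, at -1.27 to -0.53.

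Per kilobase of exon, Scd2 was by far the most abundant member, at 244 ± 44.7 CPM per kb at 50 kPa and 145 ± 27.8 CPM per kb at 2 kPa. Mvd (62.6 CPM per kb at 50 kPa, 40.1 at 2 kPa), Hmgcs1 (62.2 at 50 kPa, 49.3 at 2 kPa), Acly (58.4 at 50 kPa, 48.0 at 2 kPa) and Idi1 (39.5 at 50 kPa, 58.3 at 2 kPa) were next in order at 50 kPa. The 3 after Scd2 lay within each other's spread at 50 kPa. Idi1 was above Mvd at 2 kPa and below it at 50 kPa. Scd1 ranked 20 of 34 at 11.9 CPM per kb at 50 kPa and 12.4 at 2 kPa, and Me1 was last at 1.68 CPM per kb at 50 kPa and 2.91 at 2 kPa. These levels divide by the union of annotated exons, which long or rarely used exons lengthen. Exons of another gene overlapped those of 10 members on the opposite strand and of 4 on the same strand. No source used here says whether the counting used the strand, so reads of such pairs cannot be told apart.

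**Figure D4:**
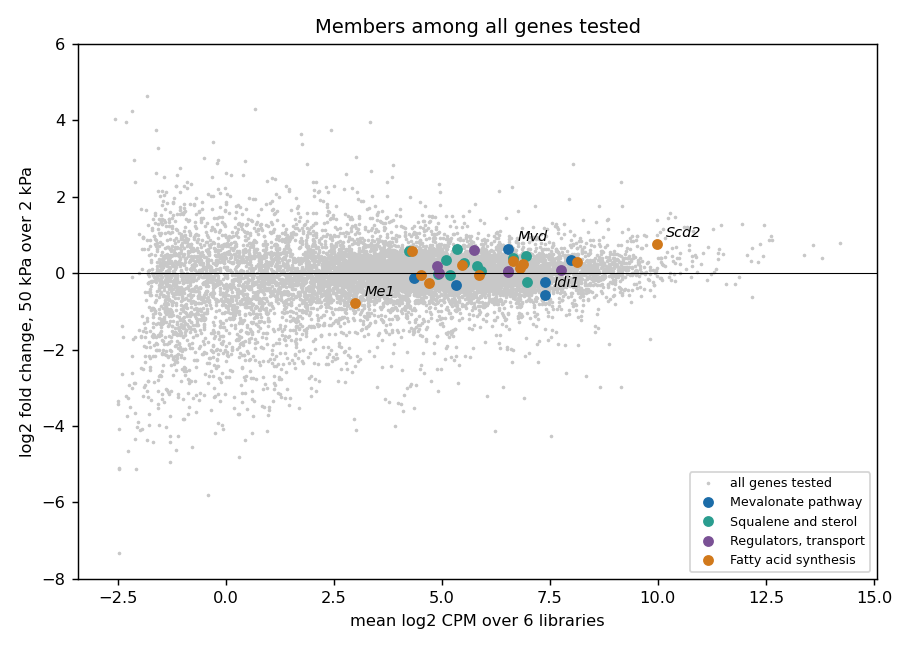
Log2 fold change of 50 kPa over 2 kPa (vertical axis) against mean log2 CPM over the 6 libraries (horizontal axis) for all 13155 genes tested (grey) and the 34 members (coloured by role). The members lie between -0.79 (Me1) and 0.75 (Scd2), well inside the range of all genes, which runs from -7.31 to 4.64.

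Genes around the pathway were read from related lists that share no member with the 34. Acacb, the mitochondrial-side acetyl-CoA carboxylase whose malonyl-CoA restrains fatty acid import, rose at 50 kPa, to 3.24, 3.70 and 2.66 CPM, against 1.24, 1.15 and 1.41 CPM at 2 kPa. The means were 3.20 ± 0.521 CPM at 50 kPa and 1.27 ± 0.132 CPM at 2 kPa (SD, n = 3 each), a 2.52-fold difference (log2 fold change 1.33 ± 0.21, adjusted p = 0.0381, edgeR) at a low level. Acacb was the only gene called of the 20 tested in the list of fatty acid elongation and activation, whose median was 0.07.

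Gpam, the mitochondrial acyltransferase that starts glycerolipid synthesis, also rose at 50 kPa. It stood at 12.7, 11.5 and 9.69 CPM at 50 kPa, against 6.13, 5.68 and 4.78 CPM at 2 kPa. The groups were far apart, 2.04-fold, with a log2 fold change of 1.03 ± 0.17 (adjusted p = 0.0381, edgeR). Gpam was the only gene called of 15 tested in glycerolipid synthesis, and the list's median was -0.22. Like that of Mvd, the calls of Acacb and Gpam were lost without high tension replicate 1 (adjusted p = 0.194 for Acacb and 0.190 for Gpam), without high tension replicate 2 (0.191 for Acacb and 0.181 for Gpam), likewise with low tension replicate 2 (0.106 for Acacb and 0.102 for Gpam) or low tension replicate 3 (0.0583 for Acacb and 0.0593 for Gpam) left out, and that of Acacb also with low tension replicate 1 left out (0.0548).

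No gene was called by edgeR in the other 5 lists. Of the genes tested in sterol uptake, 8 were higher and 2 lower at an unadjusted p under 0.05 (5 and 2 called by DESeq2), of isoprenoid branches 2 and 1 (2 and 1), of SREBP activation 1 and 3 (1 and 3), of NADPH supply 0 and 0 (0 and 0), and of fatty acid oxidation 1 and 1 (1 and 0). At that unadjusted p, the shares were 42.1% higher and 10.5% lower in sterol uptake, and 11.8% and 5.88% in isoprenoid branches. They were 8.33% and 25% in SREBP activation, and 7.69% and 7.69% in fatty acid oxidation. Over all genes tested, 13.0% were higher and 14.8% lower, and DESeq2 called 1121 higher and 1251 lower of 13150. Sterol uptake, transport and storage had the highest median, 0.31 over 19 tested genes. Within it, Osbp, which exchanges sterol between endoplasmic reticulum and Golgi, stood at 137 ± 6.08 CPM at 50 kPa and 99.4 ± 6.64 CPM at 2 kPa (adjusted p = 0.0527, edgeR), and Gramd1c, a sterol transporter of the endoplasmic reticulum, at 1.02 ± 0.398 CPM at 50 kPa and 2.55 ± 0.0925 CPM at 2 kPa (adjusted p = 0.0712, edgeR). Isoprenoid branches had a median of 0.09 over 17 genes. Pdss1, which makes the coenzyme Q side chain, stood at 2.08 ± 0.144 CPM at 50 kPa and 3.72 ± 0.320 CPM at 2 kPa (adjusted p = 0.0541, edgeR), and Icmt, which methylates prenylated proteins, at 65.3 ± 1.77 CPM at 50 kPa and 53.4 ± 1.01 CPM at 2 kPa (adjusted p = 0.0788, edgeR). Neither reached the threshold, and they lay on opposite sides. SREBP activation and sterol-regulated degradation had a median of -0.04 over 12 genes, with Erlin2, an endoplasmic reticulum protein of sterol-regulated degradation, at 0.37 ± 0.09 and the ubiquitin ligase Syvn1 at -0.43 ± 0.11 on the log2 scale. NADPH supply had a median of 0.06 over 7 genes, with Me2, the mitochondrial malic enzyme, at -0.25 ± 0.14 and Pgls, of the pentose phosphate pathway, at 0.12 ± 0.11. Fatty acid oxidation had a median of 0.09 over 13 genes, with the carnitine carrier Slc25a20 at -0.73 ± 0.27.

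**Figure D5:**
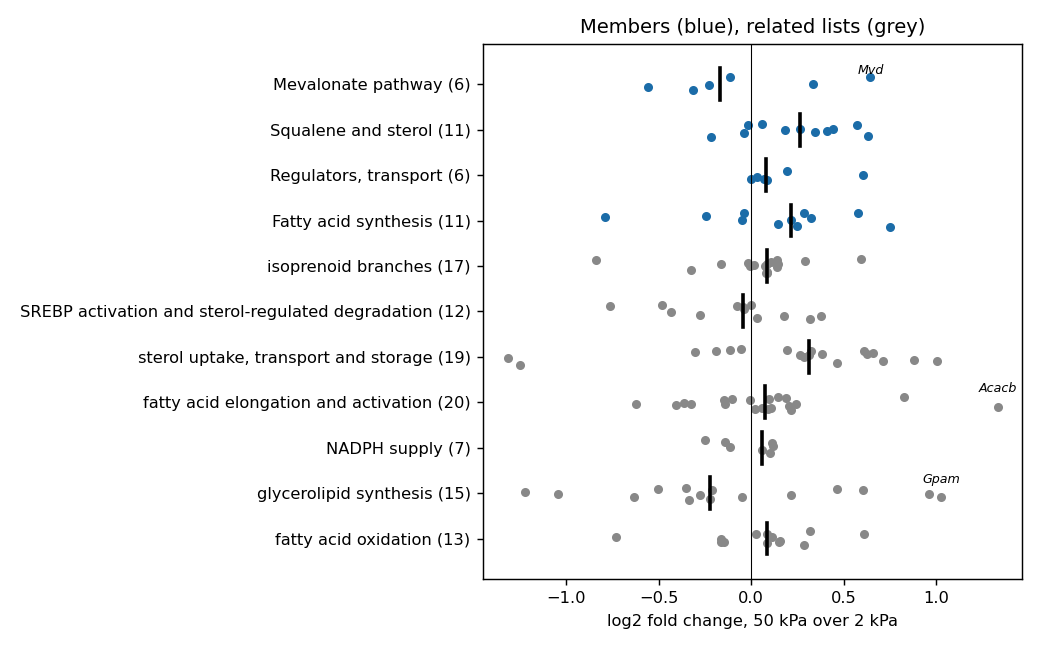
Log2 fold change of 50 kPa over 2 kPa (horizontal axis) of each tested gene in the 4 member lists (blue) and 7 related lists (grey), with the number tested in brackets and a bar at each median. Mvd, Acacb and Gpam are the genes called, and the medians run from -0.22 (glycerolipid synthesis) to 0.31 (sterol uptake, transport and storage).

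How many members were called depended on the test. DESeq2 called 9 of the 34, namely Mvd, Tm7sf2, Msmo1, Nsdhl, Stard4, Acly, Acss2 and Scd2 as higher and Cyp51 as lower. That fit called 1121 genes higher and 1251 lower of the 13150 it tested. limma-voom called Mvd alone. All 9 genes that DESeq2 called had groups that did not overlap under TMM scaling. Both readings rest on the same libraries, so the lack of overlap is no separate support for the calls. Under total counts, only Mvd, Msmo1, Stard4 and Scd2 of these genes stood wholly above, and Cyp51 wholly below.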

How the data were processed

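PolyA RNA was read in 6 libraries, 3 at 50 kPa (high tension) and 3 at 2 kPa (low tension), grouped by their titles; the kit marks strand, per the labels' protocols. The deposited values are raw read counts per gene, 1 table per library, as the authors made them. The submitters' processing notes name FastQC 0.11.2, TopHat2 2.0.11, HTSeq 0.6.1p2, edgeR 3.16.5 and 3.8.6, and the builds mm10 and hg19, with no role or order; no source used here gives the counter's strand setting. Counts were analysed as deposited in R 4.3.3 with edgeR 4.0.16 (TMM, filterByExpr with a minimum count of 10, quasi-likelihood test, group as the sole term), with Benjamini-Hochberg adjustment over 13155 genes. DESeq2 1.42.0 and limma 3.58.1 were alternatives. The script was tested on simulated data.

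The members and lists were chosen with earlier results of these data known. The text gives all members; of each related list it names the called genes, at most 4, or otherwise the 2 with the smallest p. A gene that this rule names is not reported here. Exon positions and lengths come from GENCODE vM21 (GRCm38), and start regions from RefSeq (GRCm38.p6). Libraries held 33834485 to 36270938 counts, where 1 count is worth 0.0240 to 0.0311 CPM, and the common biological coefficient of variation was 24.6%. No column of other samples was present.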

Additional observations from a re-analysis of the deposited data

How the results depend on the processing

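Fits ran with 15 alternatives. The scaling of the separation counts was added after seeing the data. Genes called higher over all numbered 77 under total-count scaling, 20 with a minimum of 5 CPM (19 lower), 1121 in DESeq2 (1251 lower) and 0 with high tension replicates 1 and 2 summed (0 lower). Leaving out 1 library gave 0 to 255 genes called higher and 0 to 256 lower. Mevalonate and sterol members called higher numbered 0 under total counts, with the 5 CPM minimum or with the summed libraries, 4 in DESeq2 (1 lower), and 0 to 1 leaving out 1 library; DESeq2 called 3 fatty acid members and 1 regulator higher. Under total counts the list medians were 0.046 (mevalonate and sterol), 0.085 (fatty acid) and -0.054 (regulators), and 4 members stood wholly above. Leaving out 1 library gave medians of 0.14 to 0.31 for the fatty acid genes and 0.054 to 0.12 for the regulators, and a difference in the Srebf1 to Srebf2 log2 ratio of -0.11 to 0.010. Same-numbered libraries deviated with correlations of 0.54, -0.11 and 0.49. Different-numbered libraries were not compared in this way, so these values do not settle whether the numbers pair the libraries. edgeR with the replicate block called 522 genes lower (260 in the main fit). It called 2 mevalonate and sterol members higher (Mvd, Tm7sf2) and 1 regulator higher (Stard4). Signs turned for uncalled genes, at most 0.14 (Fasn) in size, except Fads2 at -0.25. Under total counts Fdft1 was -0.080, Srebf1 -0.11, Srebf2 -0.045, Insig1 -0.063, Fasn -0.015 and Pgls -0.023. Scap was 0.0062 under RLE scaling, 0.010 under upper-quartile scaling, 0.011 with no filter, 0.0055 in DESeq2 and 0.00098 with the replicate block, Elovl6 was 0.017 in limma-voom and 0.036 with the block, and Scd1 was 0.029 with the summed libraries. Leaving out 1 library gave -0.32 to 0.31 for Elovl6, -0.18 to 0.23 for Scd1, -0.071 to 0.061 for Scap, -0.088 to 0.041 for Hsd17b7, -0.13 to 0.086 for Ebp, -0.0028 to 0.089 for Srebf1, -0.37 to 0.016 for Fads2 and -0.022 to 0.32 for Fasn. The cause was not tested. With 3 libraries a group, members that differ by less than their SE cannot be separated from no change.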
